A study of Mus musculus with 5 samples.

Results

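Aminoacyl-tRNA synthetases are the enzymes that load each transfer RNA with its amino acid, and 36 of their genes were followed in transplanted mouse hearts. The genes form the enzyme family as listed by name, taken up with earlier results of these data known: 20 encode enzymes that work in the cytosol and 16 encode enzymes that work in mitochondria. A probe set with a single gene symbol measured 34 of the 36 genes, out of 19938 genes measured on the arrays, namely 18 cytosolic and 16 mitochondrial ones. The only listed probe set of Aars, the cytosolic alanine enzyme, carried the symbol of another gene as well, and Dars, the cytosolic aspartate enzyme, had no listed probe set, so neither has a value here.

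The I/R grafts (for ischemia reperfusion) were 3 hearts kept for 18 h in cold University of Wisconsin solution before transplantation, and the non-I/R grafts, the controls, were 2 hearts implanted without that storage. All carry the strain label C57BL/6, no genetic alteration is named, and every graft had been implanted, so no unoperated heart is among the groups. The labels place the harvest 24 h after transplantation, while the text of the study gives a later day, and this difference could not be settled. RNA was hybridised to Affymetrix Mouse Gene 1.0 ST arrays, and values are log2 signals, on which a difference of 1 is a doubling. The labels do not say that the grafts came from separate animals, so p-values measure only the spread between these 5 arrays, which may be technical. The labels do not number the grafts, so the numbers used here (I/R 1 to 3, non-I/R 1 and 2) follow sample order and only name a graft.

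Each synthetase recognises 1 amino acid, except that Eprs carries the activities for both glutamate and proline. Most amino acids have a pair of genes in the nucleus, the first for the cytosolic enzyme and the second, usually with the suffix 2, for an enzyme imported into mitochondria to translate the proteins encoded by mitochondrial DNA. Gars and Kars are exceptions, since each encodes both forms. Several cytosolic enzymes are held in a multi-synthetase complex, and many cytosolic genes are known targets of ATF4, a transcription factor made when amino acids run short or when the translation factor eIF2 is phosphorylated. Heart muscle is rich in mitochondria and depends on both sets.

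ATF4 binds elements of the form TGATGNAA, in which N is any base, so the 300 bases from 250 before to 50 after each gene's start were searched for these letters on both strands. RefSeq promoters of the GRCm38.p6 assembly were at hand for 13 of the 20 listed cytosolic genes and 14 of the 16 mitochondrial ones. The letters occurred in 5 of the 13 cytosolic genes (Aars, Gars, Iars, Tars and Yars), in 0 of the 14 mitochondrial genes, and in 4.51% of the 27025 genes in the table. Of the measured cytosolic genes with a promoter at hand, 4 of 11 held them. A match is a run of letters and not a known site. The 4 measured genes with a match are shown as the members of the set that carry these letters. Of the 8 cytosolic genes higher in I/R grafts at an unadjusted limma p under 0.05 (8 of 18 measured, beside 7.64% of all probe sets), only Gars, Sars, Tars and Yars had a promoter at hand, and Sars held no match. The capitals mark TGATGNAA or, on the other strand, its reverse complement:
Gars (chr6:55037960-55037989, plus strand): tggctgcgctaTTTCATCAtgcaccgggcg
Iars (chr13:49682126-49682155, plus strand): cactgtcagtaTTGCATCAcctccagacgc
Tars (chr15:11399655-11399684, minus strand): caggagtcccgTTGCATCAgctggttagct
Yars (chr4:129189895-129189924, plus strand): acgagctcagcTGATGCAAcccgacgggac

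The match in Gars began 30 bases before the start and that in Tars 15 bases before it, while those in Yars and Iars began at bases 4 and 8 after it. The E-box CACGTG, which shared no base with those matches, was in 4 of the 13 cytosolic and 1 of the 14 mitochondrial genes, against 8.09% of all genes. The motif of NRF1, searched on both strands, was in 3 cytosolic and 2 mitochondrial genes, against 5.19%. CCGGAAG, an ETS element, was in 5 cytosolic and 4 mitochondrial genes, against 9.93%. CAAGGTCA, bound by estrogen-related receptors, was in 0 of either set, against 1.76%.

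The tissue label was checked against markers. All 8 cardiomyocyte markers were detected, and their summed linear signal was 50982, 49193 and 61621 units in the I/R grafts and 88265 and 76543 in the non-I/R grafts. Of the 8, 7 were lower at an unadjusted limma p under 0.05, beside 7.35% of all probe sets, or 11.6% of those with a mean log2 signal over 8. The 12 neutrophil markers summed to 8778, 16009 and 10928 units in the I/R grafts and 4824 and 6623 in the non-I/R grafts. At that p 5 were higher, beside 7.64% of all probe sets, or 14.7% of the brighter ones. The means of 9 neutrophil markers were higher and those of 3 lower. Macrophage markers (10 genes) overlapped between groups, at 15326, 13338 and 10713 units in I/R and 17191 and 11542 in non-I/R, and so did the endothelial and lymphocyte sums. The 4 atrial markers overlapped as well but varied widely within each group. They summed to 5245, 12949 and 8101 units in I/R grafts and 14228 and 6562 in non-I/R grafts. The highest atrial sums were in I/R 2 and non-I/R 1, the grafts left out together in 1 of the alternative settings. The 7 fibroblast markers summed to 10884, 9516 and 9448 units in I/R grafts and 14260 and 11338 in non-I/R grafts. Only Dcn, the brightest of them, was lower at that p, with 12.22, 11.83 and 12.07 in I/R grafts and 13.05 and 12.48 in non-I/R grafts. This 1 of 7 is near the share of the brighter probe sets. Of the 7 genes, 2 had a higher and 5 a lower mean, and 1 was separated in each direction, so the set did not move as 1. In whole tissue, fewer cells of a type and less RNA per cell cannot be told apart, and the part of cell make-up in the synthetase values was not tested.

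The cytosolic enzymes as a group had higher signal in I/R grafts, and the mitochondrial enzymes did not. Of the 18 cytosolic genes, 17 had a higher mean in I/R than in non-I/R grafts, with a median log2 fold change of 0.42 (range −0.023 to 0.80), while 5 of the 16 mitochondrial genes had a higher mean and 11 a lower one, with a median of −0.11 (range −0.38 to 0.098). Among all probe sets, 44% had a higher and 52.5% a lower mean in I/R grafts. Of the 8466 probe sets with a mean log2 signal over 8, as all measured cytosolic genes had, 4776 had a higher and 3667 a lower mean. The median of all 21789 probe sets was −0.0079, and of those with a mean log2 signal over 8 it was 0.043.

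No probe set on the arrays passed limma's test at an adjusted p of 0.05, and the lowest adjusted p of a synthetase was 0.282, shared by 4 genes. At an unadjusted limma p under 0.05, 3265 of all probe sets (15%) passed. The methods' t-test, run here with equal variances, passed 2014 (9.24%), of which 2 (0.00918%) held after adjustment. The paper's methods name this test for comparing 2 groups and state ANOVA for the arrays. With group as the only factor, an ANOVA of 2 groups gives the same p as this t-test. On that unadjusted scale, 8 of the 18 cytosolic genes were higher and 0 lower in I/R grafts, beside 7.64% of all probe sets higher, or 14.7% of those over a mean signal of 8. Of the 16 mitochondrial genes 0 were higher and 4 lower, beside 7.35% of all probe sets lower, or 11.6% of the brighter ones. No member reached a 2-fold difference, which 1.5% of all probe sets did at an unadjusted p under 0.05. With 3 grafts against 2, the smallest p that an exact permutation test can give is 0.1, so no single gene could pass such a test.

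**Figure D1:**
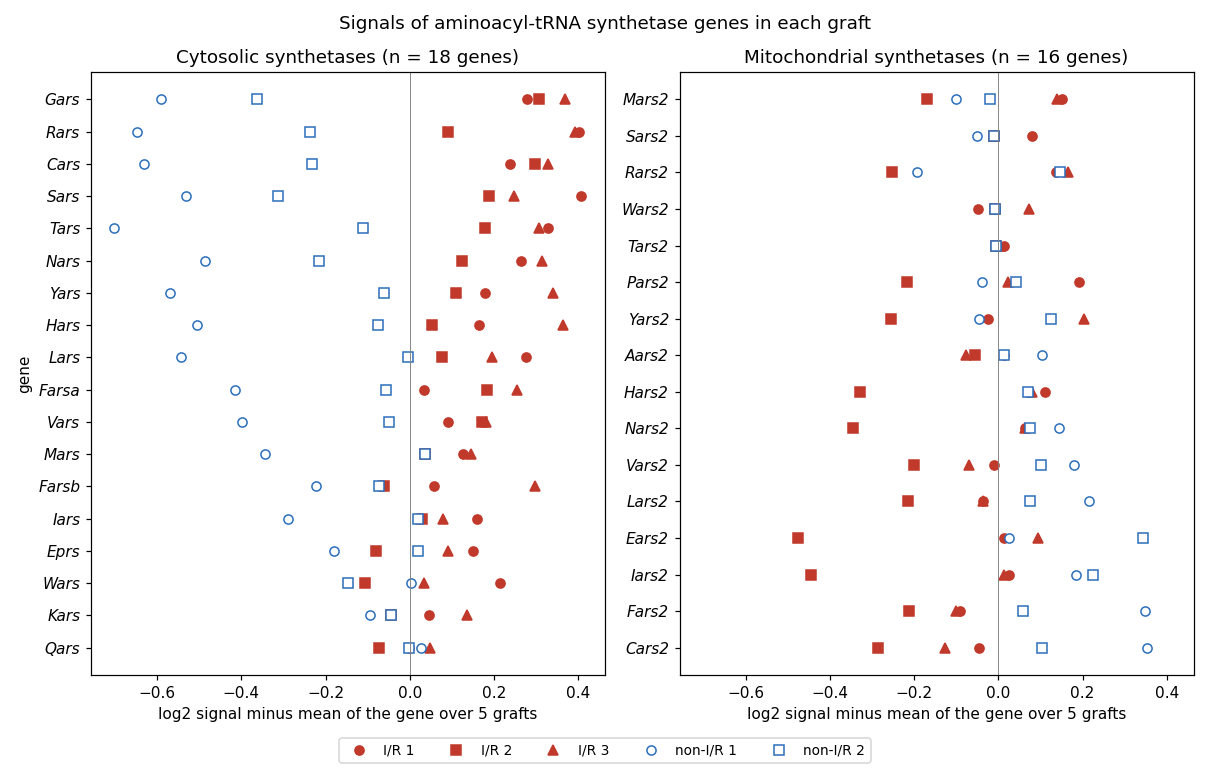
Log2 signal of each measured synthetase gene (rows), minus the mean of that gene over the 5 grafts, in each of the 3 I/R and 2 non-I/R grafts (points), with cytosolic enzymes in the left panel and mitochondrial enzymes in the right. The cytosolic genes with the largest fold changes, Gars, Rars, Cars and Sars, have all I/R points to the right of all non-I/R points, and most mitochondrial genes show points that overlap.

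Among the cytosolic enzymes, Gars, which charges glycine in cytosol and mitochondria, had log2 signals of 10.77, 10.80 and 10.86 in the I/R grafts, against 9.90 and 10.13 in the non-I/R grafts. All 3 I/R grafts lay within a narrow band and above both non-I/R grafts. The log2 fold change was 0.80 (SE 0.085, 95% interval 0.56 to 1.04), or 1.74-fold, with a limma unadjusted p of 0.000886 and an adjusted p of 0.282.

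Cars, the cysteine enzyme, had 9.50, 9.56 and 9.59 in I/R grafts and 8.63 and 9.03 in non-I/R grafts. The I/R grafts again lay close together, and the non-I/R grafts were further apart from each other than the I/R grafts were. Its log2 fold change was 0.72 (SE 0.14, limma unadjusted p 0.00703).

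Sars, the serine enzyme, which also charges the transfer RNA for selenocysteine, had 11.29, 11.07 and 11.13 in I/R grafts and 10.35 and 10.57 in non-I/R grafts. Nars, the asparagine enzyme, had 11.50, 11.36 and 11.55 in I/R grafts and 10.75 and 11.02 in non-I/R grafts. The groups of both genes were separated by a gap wider than the spread within either group. The log2 fold changes were 0.71 for Sars (SE 0.11, limma unadjusted p 0.00303) and 0.59 for Nars (SE 0.11, limma unadjusted p 0.00696).

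Rars, the arginine enzyme and a member of the complex, had log2 signals of 11.78, 11.47 and 11.77 in I/R grafts and 10.73 and 11.14 in non-I/R grafts. The I/R 2 graft was lower than the other I/R grafts but above both non-I/R grafts. Its log2 fold change was 0.74 (SE 0.18, limma unadjusted p 0.0162).

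Tars, the threonine enzyme, had 9.38, 9.23 and 9.36 in I/R grafts and 8.35 and 8.94 in non-I/R grafts. Yars, the tyrosine enzyme, had 10.18, 10.11 and 10.34 in I/R grafts and 9.43 and 9.94 in non-I/R grafts. In both genes the non-I/R 1 graft lay well below non-I/R 2, and the gap between the groups was narrower than the distance between the 2 non-I/R grafts. The log2 fold changes were 0.68 for Tars (SE 0.20, limma unadjusted p 0.0313) and 0.53 for Yars (SE 0.19, limma unadjusted p 0.0488).

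Vars, the valine enzyme, had 9.30, 9.38 and 9.39 in I/R grafts and 8.81 and 9.16 in non-I/R grafts. Its difference was smaller than those above, and its groups did not overlap. The log2 fold change was 0.37 (SE 0.12, limma unadjusted p 0.0413).

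The remaining 10 cytosolic genes did not pass. Hars, the histidine enzyme, had 9.45, 9.34 and 9.65 in I/R grafts and 8.78 and 9.21 in non-I/R grafts, and Lars, the leucine enzyme, 9.97, 9.77 and 9.89 in I/R grafts and 9.15 and 9.69 in non-I/R grafts. Neither overlapped between groups, and in each non-I/R 1 was far the lowest graft. Farsa, 1 of the 2 subunits of the phenylalanine enzyme, had a log2 fold change of 0.40 (SE 0.14, limma unadjusted p 0.0504), Hars 0.48 (SE 0.18, p 0.0566) and Lars 0.45 (SE 0.19, p 0.0777). Mars (methionine), Farsb (the other phenylalanine subunit) and Iars (isoleucine) had 0.25, 0.24 and 0.22. A second probe set of Iars had 0.34 (SE 0.11, limma unadjusted p 0.0421), while the brighter one used in the counts did not pass.

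Qars, the glutamine enzyme, stood apart from this direction, with 10.15, 10.08 and 10.20 in I/R grafts and 10.18 and 10.15 in non-I/R grafts. Wars, the tryptophan enzyme and an interferon-inducible gene, had 10.42, 10.10 and 10.24 in I/R grafts and 10.21 and 10.06 in non-I/R grafts. Both genes overlapped between the groups. The intervals of the log2 fold changes were −0.15 to 0.10 for Qars and −0.22 to 0.46 for Wars.

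Eprs had 10.50, 10.27 and 10.44 in I/R grafts and 10.17 and 10.37 in non-I/R grafts, an overlap, and an interval of −0.16 to 0.42. Kars, the lysine enzyme of both compartments, had 9.35, 9.26 and 9.44 in I/R grafts and 9.21 and 9.26 in non-I/R grafts, with an interval of −0.06 to 0.29. Gars and Kars, the genes that serve both compartments, had log2 fold changes of 0.80 and 0.12.

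In 14 of the 18 cytosolic genes the lowest I/R graft lay above the highest non-I/R graft, and in 0 the reverse held. Such a separation was found in 15.8% of all probe sets, and in 2400 of the 8466 with a mean log2 signal over 8. The separation was under 0.02 log2 units in 3 of the 14 (Farsb, Iars and Kars) and at least 0.1 in 9. The non-I/R 1 graft was the lowest of the 5 in 16 of the 18 cytosolic genes, while it was lowest in 21.2% of all probe sets. The median deviation of the cytosolic genes from their own means was 0.17, 0.083 and 0.25 in the I/R grafts and −0.45 and −0.067 in the non-I/R grafts. The non-I/R 2 graft thus lay much nearer to the I/R grafts than non-I/R 1 did. Without non-I/R 1 the cytosolic median was 0.21, with 6 genes higher, and without non-I/R 2 it was 0.63, with 13 higher, in limma fits in which the lone graft is assumed to vary like the other group. Gars, Cars, Sars and Nars passed in every fit that left out 1 graft.

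**Figure D2:**
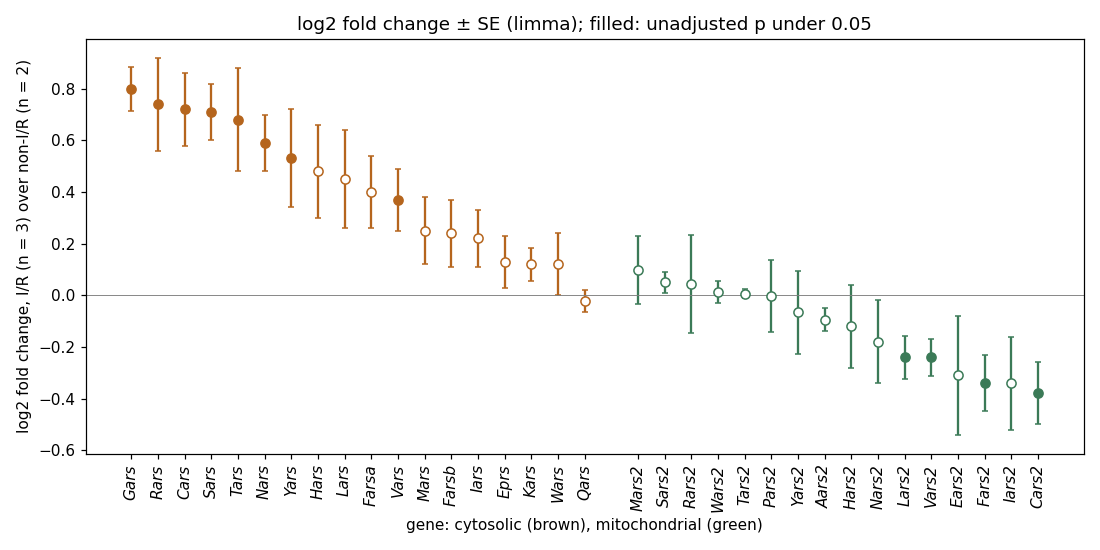
Log2 fold change, I/R minus non-I/R, of each measured synthetase gene (points) plus and minus its limma SE (bars), for cytosolic and mitochondrial enzymes. The 95% intervals are wider than these bars. Of the cytosolic genes 17 of 18 lie above 0, and of the mitochondrial genes 11 of 16 lie below 0.

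The mitochondrial enzymes had smaller differences. Cars2, the mitochondrial cysteine enzyme, had 8.66, 8.42 and 8.58 in I/R grafts and 9.06 and 8.81 in non-I/R grafts. Fars2, the mitochondrial phenylalanine enzyme, which is a single chain, had 8.12, 8.0 and 8.11 in I/R grafts and 8.56 and 8.27 in non-I/R grafts. In both genes every I/R graft lay below every non-I/R graft, and non-I/R 1 was the highest graft. The log2 fold changes were −0.38 for Cars2 (SE 0.12, limma unadjusted p 0.0324) and −0.34 for Fars2 (SE 0.11, limma unadjusted p 0.0342).

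Vars2, for valine, had 8.24, 8.05 and 8.18 in I/R grafts and 8.43 and 8.35 in non-I/R grafts. Lars2, for leucine, had 7.70, 7.52 and 7.70 in I/R grafts and 7.95 and 7.81 in non-I/R grafts. Both groups were separated, with I/R 2 the lowest graft of each gene. The log2 fold changes were −0.24 for Vars2 (SE 0.072, limma unadjusted p 0.0313) and −0.24 for Lars2 (SE 0.084, limma unadjusted p 0.049).

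Iars2, for isoleucine, did not pass, with 9.99, 9.52 and 9.98 in I/R grafts and 10.15 and 10.19 in non-I/R grafts. The groups did not overlap, but I/R 2 lay far below the other I/R grafts. Its log2 fold change was −0.34 (SE 0.18, limma unadjusted p 0.135).

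The other 11 mitochondrial genes did not pass either. Ears2 (glutamate) had −0.31, Nars2 (asparagine) −0.18 and Hars2 (histidine) −0.12, while Pars2 (proline), Tars2 (threonine), Wars2 (tryptophan), Rars2 (arginine), Sars2 (serine), Aars2 (alanine) and Yars2 (tyrosine) lay within 0.1 of 0. The mitochondrial partners of the cytosolic genes that rose included several that did not pass. Rars2 had 9.33, 8.94 and 9.36 in I/R grafts and 9.0 and 9.34 in non-I/R grafts, and Yars2 had 9.01, 8.78 and 9.24 in I/R grafts and 8.99 and 9.16 in non-I/R grafts. Sars2 had 7.59, 7.50 and 7.50 in I/R grafts and 7.46 and 7.50 in non-I/R grafts. All 3 overlapped between groups, while Nars2, with 8.20, 7.79 and 8.20 in I/R grafts and 8.28 and 8.21 in non-I/R grafts, was separated by the smallest gap of the set. Mars2 (methionine) had the highest value, 0.098 (SE 0.13, limma unadjusted p 0.482). Values were tied between grafts in 7 of the 16 genes, against 2 of the 18 cytosolic genes, and 11715 of all 21789 probe sets held a tie. Among the tied ones are Tars2 and Wars2, whose non-I/R grafts were equal.

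Every I/R graft lay below every non-I/R graft in 6 of the 16 mitochondrial genes, and in 0 the reverse held. The same held for 16.2% of all probe sets, and for 1886 of the 8466 with a mean log2 signal over 8. The gaps ran from 0.0016, in Nars2, to 0.16. The I/R 2 graft was the lowest in 12 of the 16, against 25.5% of all probe sets. The median deviation was 0.014, −0.22 and 0.018 in the I/R grafts and 0.046 and 0.069 in the non-I/R grafts, so the mitochondrial median of I/R 2 was the only one far from 0. Without I/R 2 the median log2 fold change of the mitochondrial genes was −0.016, and with the other grafts left out 1 at a time it was −0.18 to −0.13. Between 0 and 2 mitochondrial genes were lower at an unadjusted limma p under 0.05 when 1 graft was left out, with 0 without I/R 3 and 0 without non-I/R 1.

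A pairing of the cytosolic and the mitochondrial gene for the same amino acid compares the 2 within each graft, which removes any shift shared by both. There were 16 pairings, in which Fars2 and Eprs each occur in 2. The difference, cytosolic minus mitochondrial log2 signal, was higher in I/R than in non-I/R grafts in all 16, by 0.11 to 1.11 (median 0.60), and did not overlap in 13. Of all ordered pairs of probe sets, 21.8% had a difference that was higher in I/R without overlap. Each change equals the cytosolic minus the mitochondrial log2 fold change of the pairing. The direction and size of the changes therefore restate the fold changes above and are not a separate result. The signals of 2 probe sets are not on a common scale, so only the change of the difference between grafts is read.

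Cars minus Cars2 was 0.84, 1.14 and 1.01 in the I/R grafts and −0.43 and 0.22 in the non-I/R grafts, a change of 1.11. Nars minus Nars2 was 3.30, 3.57 and 3.35 in I/R grafts and 2.47 and 2.81 in non-I/R grafts, a change of 0.77. Farsa minus Fars2 was 0.31, 0.58 and 0.55 in I/R grafts and −0.58 and 0.06 in non-I/R grafts, a change of 0.74. These 3 pairings had no overlap between the groups, and in the pairing of Cars and Cars2 both members passed, in opposite directions, as did Vars and Vars2.

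Rars minus Rars2 was 2.45, 2.53 and 2.41 in I/R grafts and 1.73 and 1.80 in non-I/R grafts, a change of 0.70. Its values lay close together within each group, unlike most pairings. The 3 pairings that overlapped were Mars and Mars2 (change 0.16), Eprs and Pars2 (0.13) and Wars and Wars2 (0.11). The median change was 0.40 without non-I/R 1 and 0.78 without non-I/R 2.

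**Figure D3:**
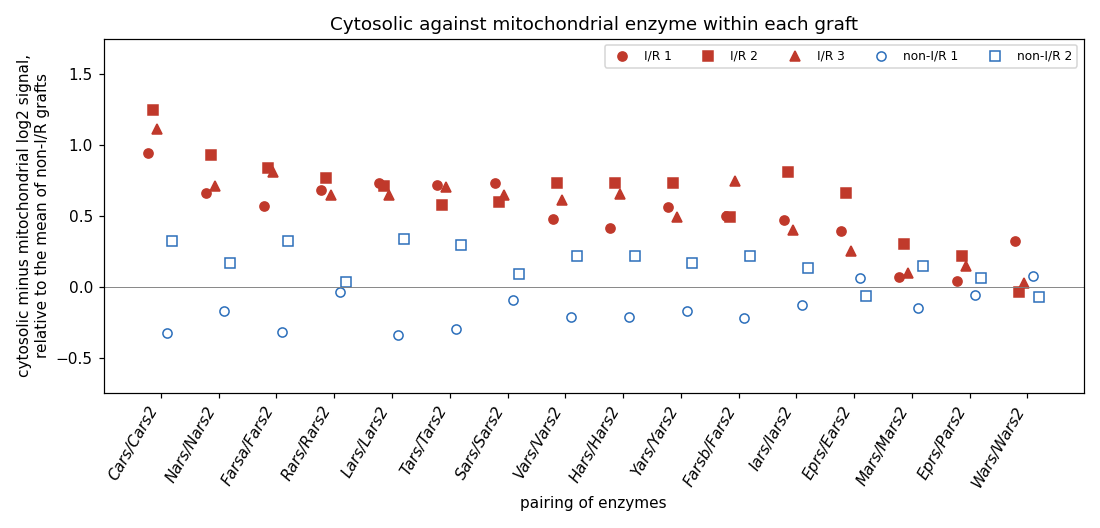
Cytosolic minus mitochondrial log2 signal within each graft, relative to the mean of the non-I/R grafts (vertical axis), for the 16 pairings (horizontal axis), with points for the 3 I/R and 2 non-I/R grafts. The I/R points lie above the non-I/R points without overlap in 13 pairings, the exceptions being Mars and Mars2, Eprs and Pars2, and Wars and Wars2.

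The cytosolic enzymes were also described by what they share. The 7 measured enzymes of the multi-synthetase complex had a median log2 fold change of 0.22, with 1 gene higher at an unadjusted limma p under 0.05 and 4 without overlap, and the 11 free enzymes had 0.53, with 7 and 10. Over all probe sets these shares were 7.64% and 15.8%. Of the 8466 probe sets over a mean signal of 8, 2400 were higher without overlap and 14.7% were higher at that p. The 1 of 7 in the complex is near this 14.7% share. The 12 known ATF4 targets had a median of 0.49, with 7 higher at that p and 9 without overlap. The other 6 had a median of 0.32, with 5 without overlap and 1 higher at that p. Only this last count is near the 14.7% share. The median of the 8466 brighter probe sets was 0.043. The 9 class I enzymes had 0.37, with 4 higher, and the 8 class II enzymes 0.54, with 4 higher (Eprs, with both kinds of active site, left out). The differences between these groupings were not tested.

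**Figure D4:**
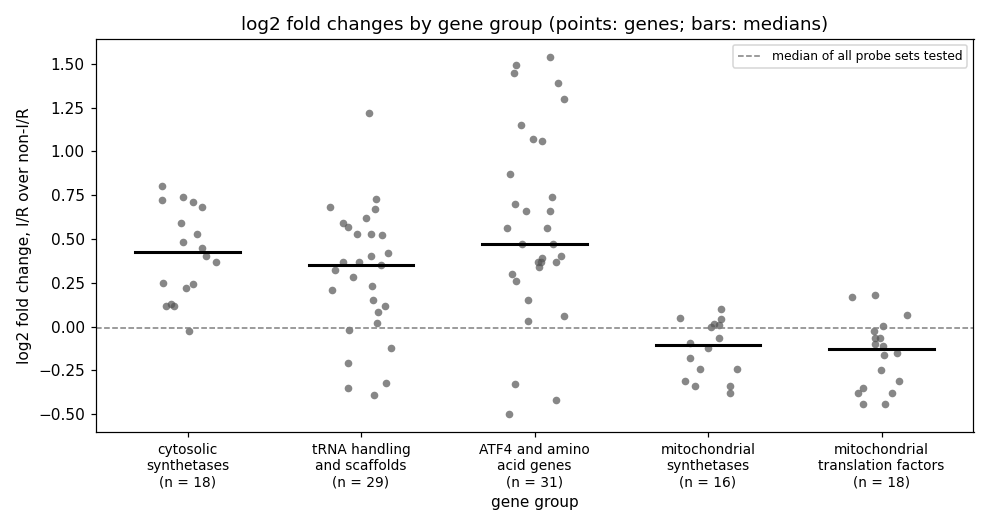
Log2 fold changes, I/R minus non-I/R, of the measured synthetase genes and of 3 related gene lists (points, 1 per gene), with bars at the median of each list and a dashed line at the median of all probe sets. The cytosolic enzymes have a median of 0.42, transfer RNA handling genes 0.35, ATF4 and amino acid genes 0.47, mitochondrial enzymes −0.11 and mitochondrial translation factors −0.13.

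A list of complex scaffolds and transfer RNA handling held 30 genes for proteins that work beside the synthetases, and 29 of the genes were measured. Of these, 23 had a higher mean, 9 were higher and 0 lower at an unadjusted limma p under 0.05, and the median was 0.35. Among all probe sets 44% had a higher mean and 7.64% were higher at that p. Of the 8466 over a mean signal of 8, 4776 had a higher mean and 14.7% were higher at that p. Xpot, the exporter of transfer RNA from the nucleus, had 10.09, 10.03 and 10.08 in I/R grafts and 9.26 and 9.64 in non-I/R grafts, a log2 fold change of 0.62 (SE 0.13, limma unadjusted p 0.00939). Trmt61a, the catalytic subunit of a transfer RNA methyltransferase, had 8.81, 9.30 and 9.24 in I/R grafts and 7.61 and 8.17 in non-I/R grafts, a log2 fold change of 1.22 (SE 0.26, limma unadjusted p 0.00993). Neither gene overlapped between groups. Secisbp2, which binds selenoprotein messages, had 0.32 (SE 0.068, limma unadjusted p 0.0106). The lower means with the smallest p were −0.21 for Dtd1, which removes D-amino acids from transfer RNA, −0.12 for Aarsd1 and −0.39 for Pstk, and none passed. The 3 scaffolds of the complex did not pass, at 0.15 for Aimp1, 0.57 for Aimp2 and 0.68 for Eef1e1. Without non-I/R 1 this list had 3 genes higher and a median of 0.13.

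Of 19 genes for mitochondrial translation factors 18 were measured, and 14 had a lower mean. At an unadjusted limma p under 0.05, 0 were higher and 2 lower, and the median log2 fold change was −0.13. The share lower among all probe sets was 7.35%, or 11.6% of those over a mean signal of 8, so the 2 of 18 called are near the background. The mean deviation of the list was 0.082, −0.28 and 0.0079 in the I/R grafts and 0.094 and 0.093 in the non-I/R grafts, with I/R 2 apart from the rest, and without I/R 2 the median was −0.028 and 4 genes were lower. Tufm, the mitochondrial elongation factor that delivers charged transfer RNA, had 9.87, 9.74 and 9.71 in I/R grafts and 10.23 and 10.07 in non-I/R grafts. Every I/R graft was below both non-I/R grafts. Its log2 fold change was −0.38 (SE 0.078, limma unadjusted p 0.00966), and Mtif2, an initiation factor, had −0.38 (SE 0.12, limma unadjusted p 0.0391). Gfm1, an elongation factor, had −0.44 and did not pass (SE 0.17, limma unadjusted p 0.0628). Mtfmt, which formylates the initiator transfer RNA, Trit1 and Trmu had the higher means with the smallest p, at 0.17, 0.18 and 0.066, and none passed.

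Genes of amino acid sensing and ATF4 targets other than synthetases were measured for 31 of 32 genes. Of these, 28 had a higher mean, 12 were higher and 0 lower at an unadjusted limma p under 0.05, with a median of 0.47. The share higher was 7.64% of all probe sets, or 14.7% of those over a mean signal of 8. The mean deviation of the list was 0.38, 0.27 and 0.042 in the I/R grafts and −0.45 and −0.25 in the non-I/R grafts. I/R 3 was thus the lowest I/R graft for this list, while it had the highest median deviation of the cytosolic synthetases (0.25). Atf4 itself had 9.70, 10.06 and 9.65 in I/R grafts and 8.76 and 9.10 in non-I/R grafts, a log2 fold change of 0.87 (SE 0.19, limma unadjusted p 0.0108). Asns, the asparagine synthetase and a well known ATF4 target, had 11.06, 10.72 and 10.85 in I/R grafts and 9.21 and 9.76 in non-I/R grafts, a log2 fold change of 1.39 (SE 0.21, limma unadjusted p 0.0034). In both genes all I/R grafts were above both non-I/R grafts. Slc7a1, a transporter of cationic amino acids, had 1.06 (SE 0.16, limma unadjusted p 0.00355) and Ppp1r15a, which restores eIF2 from its phosphorylated form, 1.54 (SE 0.24, limma unadjusted p 0.00356). Vldlr, Ddit4 and Stc2 were the 3 with lower means, at −0.50, −0.42 and −0.33, and none of them passed. Eif2ak4, the kinase that senses uncharged transfer RNA, had 0.37 (limma unadjusted p 0.121).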

How the data were processed

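Gene expression was measured in 5 heart grafts (3 I/R and 2 non-I/R) on Affymetrix Mouse Gene 1.0 ST arrays. Values are log2 signals of 35556 probe sets, which the authors computed by RMA and deposited in a single table (Partek and RMA are named in the submitters' processing notes, with no version). Since RMA brings arrays to a common distribution, a change common to most genes may not show; array medians were 6.58 to 6.65. The labels give no batch or scan date.

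Probe sets with a single symbol in the platform annotation (21789) were tested as deposited, and 1621 with several symbols and 12146 not listed were left out. Symbols were updated through gene IDs (99.6% found) against RefSeq on GRCm38.p6. The brightest probe set stood for a gene. Groups were compared by lmFit and eBayes of limma (version 3.58.1, R version 4.3.3; prior df 0.824) with Benjamini-Hochberg adjustment over all probe sets, and counts used an unadjusted p under 0.05. The script was tested on simulated data with 200 changed genes. Promoters came from RefSeq, and figures were drawn with matplotlib 3.10.9. All synthetases are named, with other genes taken from the related lists by the 3 smallest p in each direction; Atf4, Eif2ak4 and the scaffolds were added for their role, with values seen. The members and gene lists were chosen with earlier results of these data known. In all, 19 alternative settings were run.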

Additional observations from a re-analysis of the deposited data

How the results depend on the processing

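No paired analysis was possible because the labels carry no replicate numbers (those used here follow sample order). Across 19 alternatives (the pairing and related-list values under them were added after seeing the data), 0 cytosolic genes were lower at an unadjusted limma p under 0.05, and Gars, Cars and Nars passed in every one. The count of higher cytosolic genes (8) was 5 by the methods' t-test, 5 with I/R 2 and non-I/R 1 left out together, and 4 to 13 with 1 graft left out, and the cytosolic median was 0.21 to 0.63 with 1 graft left out. The count of lower mitochondrial genes (4) was 0 by the t-test, 2 among untied probe sets and 0 to 2 with 1 graft left out, and that of higher ones was 1 with both grafts left out and 0 to 1 with 1 left out. The mitochondrial median (−0.11) was −0.24 among untied probe sets, −0.018 with both left out and −0.18 to −0.016 with 1 left out, nearest 0 without I/R 2. The median pairing change was 0.36 with both grafts left out and 0.40 to 0.78 with 1 left out.

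For transfer RNA handling genes, the higher count (9) was 4 by the t-test, 4 with both grafts left out and 3 to 14 with 1 left out. The lower count (0) was 1 after quantile normalization, 2 with both left out and 0 to 2 with 1 left out, and the median was 0.17 with both left out and 0.13 to 0.47 with 1 left out. For mitochondrial translation factors the lower count (2) was 1 by the t-test and 1 to 4 with 1 graft left out, and the median (−0.13) was −0.28 among untied probe sets, −0.031 with both left out and −0.17 to −0.028 with 1 left out. For the ATF4 list, with both grafts left out, 5 genes were higher and 1 lower, and the median was 0.66 among untied probe sets and 0.43 to 0.64 with 1 graft left out.

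Fold changes near 0 changed sign. Pars2 had 0.01 with array weights, 0.026 after median centring, 0.04 after quantile normalization, 0.027 after cyclic loess, 0.064 with both grafts left out and −0.098 to 0.11 with 1 left out. Qars had 0.00049 with array weights, 0.0049 after median centring, 0.022 with both left out and −0.05 to 0.0069 with 1 left out. Tars2 had −0.034 after quantile normalization and −0.034 after cyclic loess. Yars2 had 0.038 with array weights and −0.18 to 0.05 with 1 graft left out. Hars2 had 0.023 with both left out and −0.20 to 0.023 with 1 left out, Rars2 −0.13 to 0.21 and Wars2 −0.02 to 0.038. The causes were not tested. The number of arrays limits the precision of every value.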
